A study of Mus musculus with 8 samples.

Results

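Marco and 9 macrophage marker genes were examined in the livers of 8 mice. Marco encodes a class A scavenger receptor of Kupffer cells, the resident macrophages of the liver, and it was chosen by its higher level in mice lacking Rbfox2 in hepatocytes. Its genotype difference is therefore given as a description, without a test. The other 9 genes (Cd163, Cd68, Mrc1, Clec4f, Timd4, Vsig4, Cd5l, Adgre1 and Csf1r) were set beside it to tell a difference in the amount of macrophage RNA from a difference in Marco alone. The rule took the rows whose Ensembl identifiers map to the 10 symbols, out of 46078 genes in the table, and all 10 passed the filter on low counts.

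All mice were on a C57BL6/J background, carried loxP-flanked Rbfox2 alleles and drank 30% (w/v) fructose for 22 weeks from the age of 8 weeks, and livers were taken after a fast. The WT group (Alb_cre-, Rbfox2 LoxP/LoxP) had 5 livers and the Rbfox2 KO group (Alb_cre+, Rbfox2 LoxP/LoxP) had 3. The Cre recombinase was driven by the albumin promoter, which is active in hepatocytes and not in macrophages, so the macrophages of both groups kept Rbfox2 by design, and cells other than hepatocytes add Rbfox2 RNA to a whole-liver sample. RNA was sequenced from whole liver, and fewer cells of a type and less RNA per cell cannot be told apart in such samples.

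Kupffer cells line the liver sinusoids, where they take up bacteria, lipoproteins and dying cells from portal blood. Scavenger receptors bind modified lipoproteins and microbial surfaces, and Marco, with a collagen-like stem and a cysteine-rich head, is one that Kupffer cells share with macrophages of the splenic marginal zone and the lung. Clec4f, Timd4, Vsig4 and Cd5l are used to recognise resident Kupffer cells, whereas Adgre1, Csf1r and Cd68 are present in macrophages in general and also in those that derive from blood monocytes.

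Levels are CPM, read counts divided by library size, with sizes scaled by the TMM method of edgeR, a trimmed mean of log ratios. Total counts ran from 24829693 to 37823155 per liver, where 3 counts, taken as the smallest detectable level, equal 0.0839 to 0.118 CPM. Rbfox2 itself was at 6.84 to 12.4 CPM in Rbfox2 KO and at 13.96 to 23.2 CPM in WT livers, so each library matched its label. Rbfox2 KO 1 stood apart from the other 7 livers. Its 12 pancreatic exocrine genes summed to 461 CPM against 4.78 to 17.3 CPM elsewhere, and its 14 monocyte-derived macrophage genes to 95.7 CPM against 48.2 to 64.8 CPM. The differences of the 10 genes and the counts and medians of the macrophage lists are therefore also given without it. In that fit 3.83% of all genes passed an unadjusted p of 0.05 with edgeR.

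Promoter sequences are printed for Marco, whose level separated the groups, for Cd5l, the 1 gene of the other 9 past an unadjusted p of 0.05, and for Clec4f, the most restricted Kupffer cell marker, whose genotype difference had the narrowest interval of the 9. They come from RefSeq on GRCm38.p6 and run 5′ to 3′ on the gene's strand, over the 250 bases before its RefSeq start. The Marco window is chr1:120505025-120505274 (minus strand), that of Cd5l is chr3:87357631-87357880 (plus strand) and that of Clec4f is chr6:83656117-83656366 (minus strand). Capitals mark 3 short motifs of macrophage or nuclear receptor factors, searched on both strands: GAGGAA, a core of the macrophage factor PU.1, TGCTGA, a core of the MAF factors, and AGGTCA, a nuclear receptor half-site.
Marco: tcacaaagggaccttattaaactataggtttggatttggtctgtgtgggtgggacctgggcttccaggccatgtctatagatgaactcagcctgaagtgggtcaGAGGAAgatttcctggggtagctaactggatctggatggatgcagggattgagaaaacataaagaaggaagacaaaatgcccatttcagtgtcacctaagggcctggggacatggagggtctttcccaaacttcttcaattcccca
Cd5l: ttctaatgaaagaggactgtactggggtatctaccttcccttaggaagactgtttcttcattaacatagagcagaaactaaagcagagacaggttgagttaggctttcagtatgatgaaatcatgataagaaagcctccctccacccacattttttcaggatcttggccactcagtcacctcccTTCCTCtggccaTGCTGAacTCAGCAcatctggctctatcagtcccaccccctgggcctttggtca
Clec4f: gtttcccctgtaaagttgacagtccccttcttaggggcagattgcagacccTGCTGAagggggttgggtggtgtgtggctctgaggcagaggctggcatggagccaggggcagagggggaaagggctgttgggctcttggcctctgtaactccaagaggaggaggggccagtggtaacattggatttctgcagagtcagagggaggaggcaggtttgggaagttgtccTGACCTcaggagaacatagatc
The Marco window held 1 PU.1 core, 146 bases before the start, and neither of the other motifs. The Cd5l window held 1 PU.1 core and 2 MAF cores, which lie on opposite strands side by side, 66, 54 and 46 bases before the start. In the Clec4f window there were 1 MAF core and 1 nuclear receptor half-site, and no PU.1 core of these letters. GENCODE M21 places the Clec4f start at 83656187, inside that window, so the half-site falls within the gene as annotated there. Csf1r was left out of the search, and Adgre1 had no sequence to search. Of the other 8 genes, 5 held the PU.1 core, 3 the MAF core and 2 the half-site, against 23.3%, 16.1% and 14.0% of 32817 promoters of the same length. These matches are descriptions of the windows, and binding was not measured.

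The scavenger receptors come first. Marco (ENSMUSG00000026390, chromosome 1, 120474538 to 120505024 on the minus strand, GRCm38) had 9.90, 9.02, 11.4, 9.61 and 13.5 CPM in WT 1 to 5 and 22.2, 18.5 and 30.9 CPM in Rbfox2 KO 1 to 3. Each Rbfox2 KO liver was above every WT liver, with Rbfox2 KO 3 highest and Rbfox2 KO 2 nearest to WT. Levels were 10.7 ± 1.79 CPM over the 5 WT livers and 23.9 ± 6.39 CPM over the 3 Rbfox2 KO livers (mean ± SD). The fitted difference was 1.16 on the log2 scale, or 2.24 times WT. Without Rbfox2 KO 1 it was 2.31 times WT, without Rbfox2 KO 2 2.49 times and without Rbfox2 KO 3 1.90 times. The difference was thus as large without the library that held pancreatic RNA, and the high level of Rbfox2 KO 3 carried a part of it. Groups did not overlap for 3.71% of the 14654 genes tested.

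Cd163 (ENSMUSG00000008845, chromosome 6, 124304656 to 124330527 on the plus strand) encodes the receptor that clears haemoglobin bound to haptoglobin. Its level was 7.09, 9.60, 8.61, 11.4 and 19.8 CPM in WT 1 to 5 and 4.61, 8.42 and 12.7 CPM in Rbfox2 KO 1 to 3. The WT livers alone differed 2.79-fold, the widest spread of the 10 genes in that group, and Rbfox2 KO 1 was below all of them. The log2 difference was -0.40 ± 0.40 (SE) with edgeR's quasi-likelihood test (adjusted p = 0.99997), -0.11 without Rbfox2 KO 1, -0.80 without Rbfox2 KO 3 and -0.10 without WT 5, the highest liver. The 95% interval of the fold change was wide, from 0.403 to 1.43 times WT.

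Cd68 (ENSMUSG00000018774, chromosome 11, 69664213 to 69666153 on the minus strand) encodes a glycoprotein of late endosomes and lysosomes that is abundant in phagocytes. It had 5.43, 6.82, 5.31, 6.08 and 6.65 CPM in WT 1 to 5 and 11.5, 5.54 and 6.29 CPM in Rbfox2 KO 1 to 3. Rbfox2 KO 1 was far above every WT liver, and the other 2 Rbfox2 KO livers lay within the WT range. The log2 difference of 0.36 ± 0.22 (SE) (edgeR, adjusted p = 0.99997) became -0.039 without Rbfox2 KO 1, the liver with the raised monocyte-derived macrophage genes.

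Mrc1 (ENSMUSG00000026712, chromosome 2, 14229392 to 14332057 on the plus strand) encodes the mannose receptor, which in liver is shared by Kupffer cells and sinusoidal endothelium. Its level was 30.98, 34.1, 32.3, 33.7 and 37.2 CPM in WT 1 to 5 and 29.8, 34.7 and 39.3 CPM in Rbfox2 KO 1 to 3. The 3 Rbfox2 KO livers spanned the whole WT range. The log2 difference was 0.042 ± 0.11 (SE) (edgeR, adjusted p = 0.99997), and the 95% interval of the fold change was 0.873 to 1.21 times WT. Without Rbfox2 KO 1 the difference was 0.13, and without Rbfox2 KO 3 it was -0.061.

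**Figure D1:**
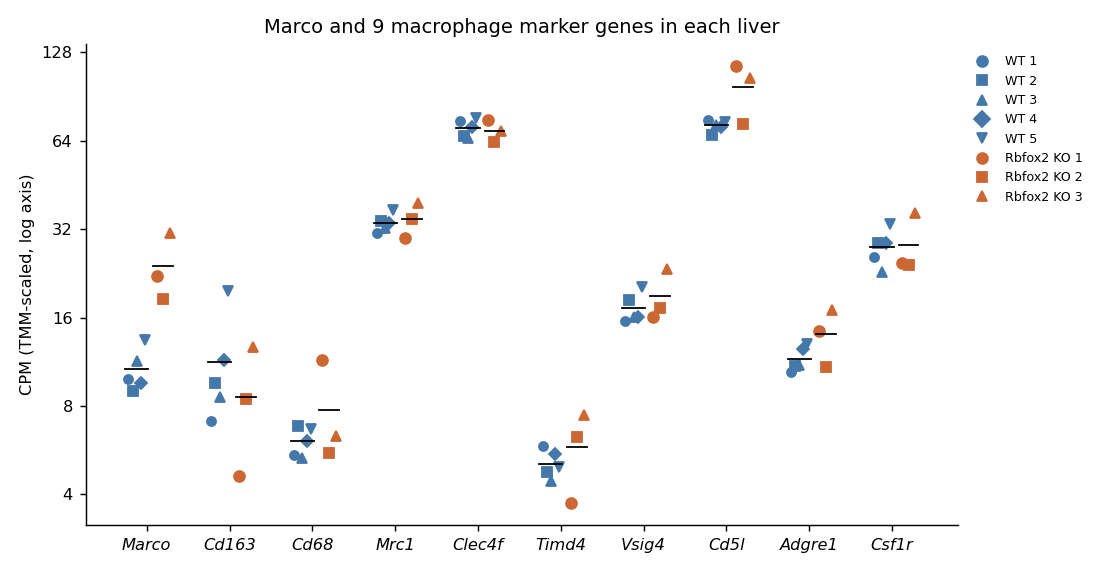
TMM-scaled CPM of the 10 genes in each liver on a log axis, with WT livers in blue, Rbfox2 KO livers in orange, a marker shape for each sample number and a black line at each group mean. Marco is the only gene whose 3 Rbfox2 KO livers all lie above the 5 WT livers, and the Cd68 mean of Rbfox2 KO is pulled up by Rbfox2 KO 1.

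For the receptors most restricted to Kupffer cells the groups overlapped. Clec4f (ENSMUSG00000014542, chromosome 6, 83644542 to 83656187 on the minus strand), a galactose-binding C-type lectin, had 74.9, 66.5, 65.6, 71.2 and 76.3 CPM in WT 1 to 5 and 75.5, 63.4 and 68.9 CPM in Rbfox2 KO 1 to 3. Rbfox2 KO 2 was the lowest of the 8 livers and the other 2 Rbfox2 KO livers lay within the WT range. The log2 difference was -0.034 ± 0.10 (SE) (edgeR, adjusted p = 0.99997), and the 95% interval of the fold change was 0.842 to 1.13 times WT. Without Rbfox2 KO 1 the log2 difference was -0.11, and without Rbfox2 KO 2 it was 0.025. The sign of the Clec4f difference turned to 0.088 when libraries were scaled by their totals, a scaling that moved the median of all genes by about the same amount, to 0.12.

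Timd4 (ENSMUSG00000055546, chromosome 11, 46810800 to 46844332 on the plus strand) encodes TIM-4, a phosphatidylserine receptor for the uptake of dying cells that marks long-lived Kupffer cells. It had 5.84, 4.75, 4.43, 5.49 and 4.94 CPM in WT 1 to 5 and 3.73, 6.25 and 7.44 CPM in Rbfox2 KO 1 to 3. Rbfox2 KO 1 was below every WT liver, whereas Rbfox2 KO 2 and 3 were above all of them. The log2 difference was 0.19 ± 0.21 (SE) (edgeR, adjusted p = 0.99997). Without Rbfox2 KO 1 it was 0.42 (past an unadjusted p of 0.05, edgeR adjusted p = 0.9998), and without Rbfox2 KO 3 it was -0.032.

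Vsig4 (ENSMUSG00000044206, chromosome X, 96247203 to 96293438 on the minus strand) encodes CRIg, a complement receptor with which Kupffer cells capture opsonised bacteria. Its level was 15.5, 18.4, 16.1, 16.04 and 20.3 CPM in WT 1 to 5 and 16.1, 17.3 and 23.5 CPM in Rbfox2 KO 1 to 3. Only Rbfox2 KO 3 exceeded the WT range, and the log2 difference was 0.14 ± 0.14 (SE) (edgeR, adjusted p = 0.99997; interval 0.882 to 1.37 times WT). It was 0.23 without Rbfox2 KO 1 and -0.05 without Rbfox2 KO 3.

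Cd5l (ENSMUSG00000015854, chromosome 3, 87357881 to 87371073 on the plus strand) encodes AIM, a protein that macrophages secrete and that circulates with IgM. It had 75.6, 67.2, 72.7, 71.3 and 74.5 CPM in WT 1 to 5 and 115, 73.2 and 105 CPM in Rbfox2 KO 1 to 3. The WT livers were close together, Rbfox2 KO 1 and 3 were well above them and Rbfox2 KO 2 lay among them. Levels were 72.3 ± 3.27 CPM over the 5 WT livers and 97.8 ± 21.9 CPM over the 3 Rbfox2 KO livers (mean ± SD), and the log2 difference was 0.44 ± 0.13 (SE). It did not pass the threshold of an adjusted p of 0.05 with edgeR (adjusted p = 0.864) or DESeq2 (adjusted p = 0.356). The difference was 0.30 without Rbfox2 KO 1 (no longer past an unadjusted p of 0.05) and 0.61 without Rbfox2 KO 2 (edgeR adjusted p = 0.161).

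The last pair are receptors of macrophages in general. Adgre1 (ENSMUSG00000004730, chromosome 17, 57358691 to 57483527 on the plus strand) encodes the F4/80 antigen. It had 10.5, 10.9, 10.997, 12.5 and 13.01 CPM in WT 1 to 5 and 14.4, 10.9 and 17.01 CPM in Rbfox2 KO 1 to 3, so Rbfox2 KO 1 and 3 were above the WT range and Rbfox2 KO 2 within it. The log2 difference was 0.28 ± 0.14 (SE) (edgeR, adjusted p = 0.99997). It was 0.27 without Rbfox2 KO 1 and 0.12 without Rbfox2 KO 3. As for Cd5l, it was largest without Rbfox2 KO 2, at 0.44 (past an unadjusted p of 0.05, edgeR adjusted p = 0.514).

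Csf1r (ENSMUSG00000024621, chromosome 18) encodes the receptor for CSF1 and IL-34, on which macrophages depend for survival. It had 25.8, 28.6, 22.9, 28.7 and 33.4 CPM in WT 1 to 5 and 24.5, 24.2 and 36.2 CPM in Rbfox2 KO 1 to 3. Rbfox2 KO 1 and 2 were in the lower part of the WT range and Rbfox2 KO 3 was the highest liver. The log2 difference was 0.021 ± 0.16 (SE) (edgeR, adjusted p = 0.99997), 0.11 without Rbfox2 KO 1 and -0.20 without Rbfox2 KO 3. Hmgxb3 covers 15.1% of the exonic bases of Csf1r on the opposite strand, and the counting is not stated to use strand, so reads of these genes may be mixed in its values.

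Among the 9 genes set beside Marco, 0 passed the adjusted threshold with edgeR, where the share over all 14654 genes was 0%, and 0 passed with DESeq2, where it was 0.404%. At an unadjusted p of 0.05 with edgeR, Cd5l was the 1 gene of 9, against 4.74% of all genes. In 7 of the 9 the fitted level was higher in Rbfox2 KO, with a median log2 difference of 0.14 beside 0.00095 over all genes tested. None of the 9 had groups that did not overlap, where the share over all genes tested was 3.71%. The largest of the 9 fold changes was 1.35, that of Cd5l. These counts say nothing of differences inside the 95% intervals of the fold changes. Besides those given above, the intervals reach 1.80 times WT for Cd68, 1.67 for Cd5l, 1.57 for Timd4, 1.52 for Adgre1 and 1.30 for Csf1r.

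**Figure D2:**
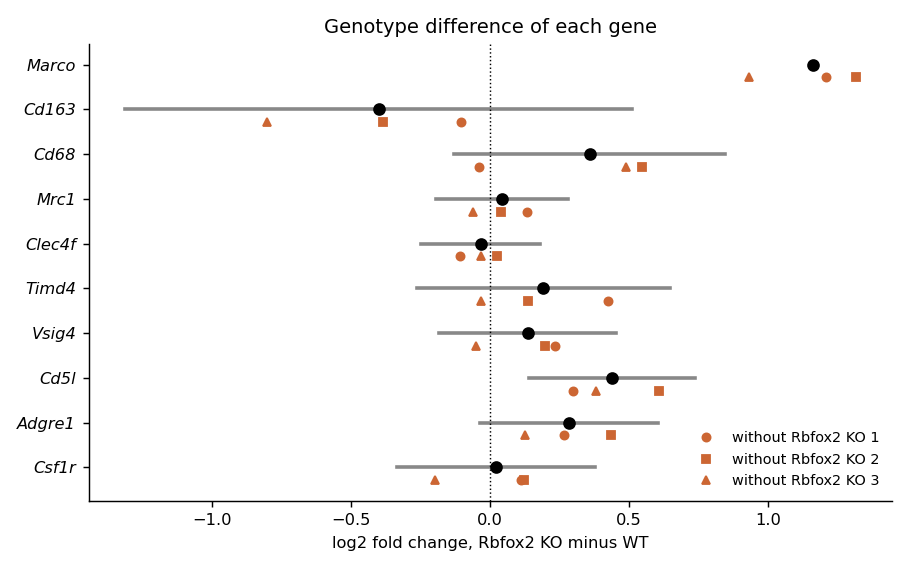
Log2 fold change of each gene, Rbfox2 KO minus WT (black points), with grey bars for the 95% interval of the 9 tested genes and small orange symbols for the value without 1 Rbfox2 KO liver. Marco lies at 1.16 and is drawn without an interval because it was chosen by this difference, and the values for Cd163 and Cd68 move most with the liver left out.

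The level of Marco was next read against each macrophage marker within the same liver, a quantity in which library scaling cancels apart from the prior count. The ratio of Marco to the geometric mean of Clec4f, Timd4 and Vsig4 was 0.524, 0.502, 0.682, 0.522 and 0.682 in WT 1 to 5. In Rbfox2 KO 1 to 3 it was 1.34, 0.972 and 1.35. All 3 Rbfox2 KO livers were above all 5 WT livers, and Rbfox2 KO 2 was again the nearest to WT. The mean difference was 1.06 on the log2 scale, and it was 0.99 without Rbfox2 KO 1. With Adgre1, Csf1r and Cd68 as the reference it was 0.95.

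Read gene by gene, the Marco ratio was higher in every Rbfox2 KO liver than in every WT liver for 8 of the 9 markers. The mean ratio in Rbfox2 KO was 3.04 times that in WT for Cd163, 2.29 times for Clec4f and 1.67 times for Cd5l, the highest, the second highest and the lowest of the 9. The exception was Cd68. The Marco to Cd68 ratio of Rbfox2 KO 1, 1.94, lay inside the WT range of 1.32 to 2.15, and those of Rbfox2 KO 2 and 3 were 3.33 and 4.92. Since Marco was chosen for its difference, these ratios carry no test.

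**Figure D3:**
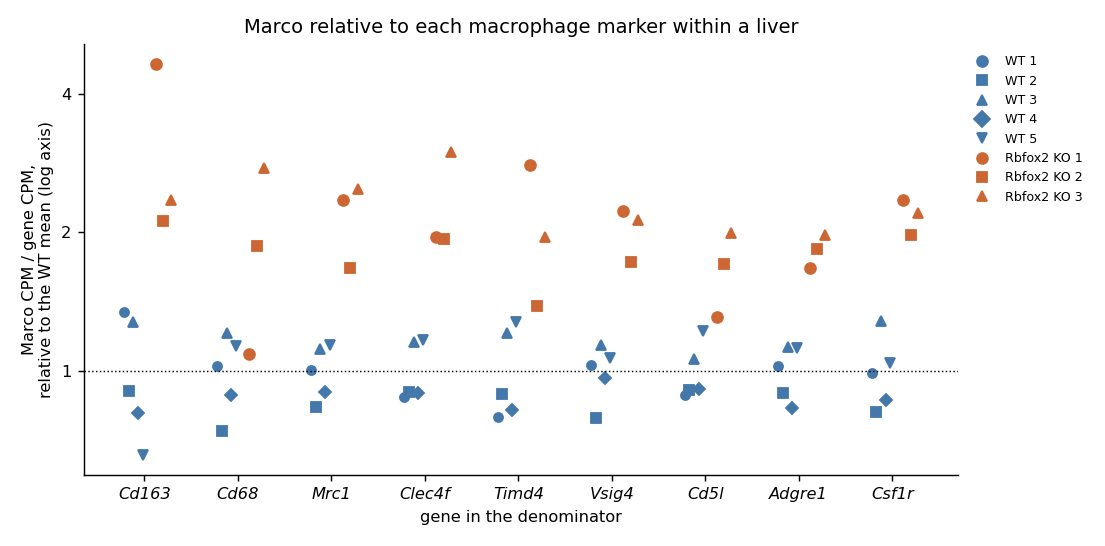
Marco CPM divided by the CPM of each macrophage marker within a liver, relative to the WT mean of that ratio, on a log axis with WT livers in blue and Rbfox2 KO livers in orange. The orange points lie above all blue points for each marker except Cd68, where Rbfox2 KO 1 falls among the WT livers.

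Per kilobase of exon, which allows levels to be compared between genes, Cd5l and Clec4f led in WT with 35.5 ± 1.61 and 28.7 ± 1.95 CPM per kb (SD, n = 5), followed by Vsig4 with 11.6 ± 1.36. Marco followed with 5.55 ± 0.928 CPM per kb and overlapped with Mrc1 at 5.28 ± 0.367. Csf1r at 4.83 ± 0.676 and Cd68 at 4.82 ± 0.548 CPM per kb overlapped with each other and with Mrc1. Adgre1, at 3.58 ± 0.346, was below Cd68 in every WT liver, and Timd4 and Cd163, at 2.34 ± 0.261 and 2.07 ± 0.912, were lowest and overlapped. In Rbfox2 KO livers the level of Marco was 12.4 ± 3.32 CPM per kb (SD, n = 3) and overlapped with that of Vsig4 at 12.8 ± 2.66, while Cd5l and Clec4f remained in the first 2 places.

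Genes with a pattern across the 8 livers like that of Marco were ranked by Pearson's r of log2 CPM over 12337 genes with a mean of at least 1 CPM. Because Marco separates the groups, genes that also separate them rank high. The first 5 were Nr1i2, the xenobiotic receptor PXR (r = 0.963), Gys2, the liver glycogen synthase (r = 0.962), Kctd15 (r = 0.959), Tfdp2 (r = 0.954) and Rybp (r = 0.948). Nr1i2 had 60.7, 61.3, 64.3, 60.1 and 63.1 CPM in WT 1 to 5 and 70.6, 69.9 and 72.5 CPM in Rbfox2 KO 1 to 3, a far smaller step than that of Marco. The closest of the 9 macrophage markers was Cd5l (r = 0.834, place 76), then Adgre1 (r = 0.782, place 162), and Clec4f had r = -0.016. The points share the genotype and the library scaling, and no p is attached to these values.

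Other genes of Kupffer cells and of scavenging were then counted. In a list of 16 other Kupffer cell markers, 0 passed the adjusted threshold with edgeR or DESeq2. At an unadjusted p of 0.05, 3 were higher and 0 lower in Rbfox2 KO, against 2.41% higher and 2.33% lower over all genes. The median log2 difference was 0.25, or 0.085 without Rbfox2 KO 1. The 3 genes were Il18bp, a decoy receptor for IL-18 (0.43 ± 0.16), Hmox1, which degrades haem (0.46 ± 0.17), and Cfp, the complement factor properdin (0.28 ± 0.11, log2 ± SE, adjusted p of 0.933, 0.954 and 0.954). Hmox1 had 15.4, 14.4, 15.9, 15.3 and 17.3 CPM in WT 1 to 5 and 29.9, 16.3 and 18.5 CPM in Rbfox2 KO 1 to 3, so that Rbfox2 KO 1 was far above the other livers. The differences of these 3 genes without Rbfox2 KO 1 were 0.20, 0.14 and 0.23, and none passed an unadjusted p of 0.05, where 3.83% of all genes did. The 1 gene of the list that did so there was Ctsc, the protease cathepsin C, at 58.5, 69.2, 66.7, 73.8 and 62.5 CPM in WT 1 to 5 and 69.4, 72.000 and 104 CPM in Rbfox2 KO 1 to 3, with Rbfox2 KO 3 far above the rest. In the fit 13 of the 16 genes were higher in Rbfox2 KO and 3 lower. The lower ones were Fcna (-0.25 ± 0.11), Hpgd (-0.10 ± 0.13) and Folr2 (-0.092 ± 0.12, log2 ± SE). Fcna and Folr2 were below every WT liver in Rbfox2 KO 1 and 2. The summed level of the 16 genes weighs most on abundant ones such as Slc40a1 and Hpgd (126 and 119 CPM in WT). It was 661 and 677 CPM in Rbfox2 KO 1 and 3, above the WT range of 572 to 593 CPM. In Rbfox2 KO 2 it was 583 CPM, within that range. Rbfox2 KO 1 and 3 were also the high livers for Cd5l and Adgre1.

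Receptors related to Marco overlapped between the groups. Msr1, the other class A scavenger receptor that macrophages make in quantity, had 8.68, 7.17, 7.69, 8.18 and 8.07 CPM in WT 1 to 5 and 8.94, 7.59 and 7.16 CPM in Rbfox2 KO 1 to 3. Rbfox2 KO 1 was the highest liver and Rbfox2 KO 3 the lowest, with a log2 difference of -0.011 ± 0.12 (edgeR, adjusted p = 0.99997). Colec12, a scavenger receptor of endothelium, had 22.7, 31.6, 24.6, 24.6 and 27.3 CPM in WT 1 to 5 and 16.3, 18.9 and 24.6 CPM in Rbfox2 KO 1 to 3 (-0.39 ± 0.15, edgeR adjusted p = 0.954, and -0.27 without Rbfox2 KO 1). In a list of 16 scavenger receptor genes 13 were tested. Of these, 1 was higher and 1 lower at an unadjusted p of 0.05, against 2.41% and 2.33% of all genes. The higher was Cxcl16 (0.36 ± 0.13, edgeR adjusted p = 0.924), which binds oxidised lipoprotein at the cell surface, and the lower was Colec12. With edgeR or DESeq2, 0 passed the adjusted threshold. The list median was 0.0084, or -0.075 without Rbfox2 KO 1. Neither gene passed an unadjusted p of 0.05 without Rbfox2 KO 1, where the count was 0 in both directions.

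Among 22 myeloid and macrophage genes, 2 were higher at an unadjusted p of 0.05 (2.41% of all genes), 0 were lower and 0 passed the adjusted threshold with edgeR or DESeq2. These were Aif1, a calcium-binding protein of macrophages (0.51 ± 0.18, adjusted p = 0.909), and Cd14, the co-receptor for lipopolysaccharide (0.61 ± 0.26, adjusted p = 0.99997). Cd14 was at 1.29, 2.23, 1.55, 2.10 and 2.75 CPM in WT 1 to 5 and 2.35, 2.83 and 3.94 CPM in Rbfox2 KO 1 to 3, and its difference without Rbfox2 KO 1 was 0.76. That of Aif1 was then 0.32 and no longer past an unadjusted p of 0.05, which left Cd14 as the 1 gene of the list. The median of the list was 0.25, and 0.052 without Rbfox2 KO 1.

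Among 16 signals that maintain Kupffer cells, 0 were higher and 1 was lower at an unadjusted p of 0.05, against 2.41% and 2.33% of all genes. With edgeR or DESeq2, 0 passed the adjusted threshold. Id3, a transcriptional regulator needed for Kupffer cell development, was the 1 gene, with 32.7, 49.6, 50.8, 50.4 and 49.7 CPM in WT 1 to 5 and 33.8, 31.7 and 43.3 CPM in Rbfox2 KO 1 to 3 (-0.36 ± 0.16, adjusted p = 0.99997). WT 1 had a level as low as that of Rbfox2 KO 1 and 2. The Id3 difference was -0.32 without Rbfox2 KO 1, and there no gene of the list passed an unadjusted p of 0.05. The most abundant gene of the list, Nr1h3, which encodes the liver X receptor alpha, differed by 0.037 ± 0.10, and the list median was 0.047, or -0.015 without Rbfox2 KO 1. Of 13 inflammatory mediators tested in a list of 20, 0 passed either threshold with edgeR and 0 passed the adjusted threshold with DESeq2, and Arg1, an abundant hepatocyte enzyme as well as a macrophage gene, differed by 0.31 ± 0.15 (adjusted p = 0.99997). The median of the mediators was 0.28, or 0.080 without Rbfox2 KO 1.

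Among genes of monocyte-derived macrophages, some were high in Rbfox2 KO 1 alone and others were not. Trem2, a lipid-sensing receptor of macrophages, had 0.517, 0.452, 0.246, 0.350 and 0.621 CPM in WT 1 to 5 and 4.33, 0.629 and 0.448 CPM in Rbfox2 KO 1 to 3, and Gpnmb, a glycoprotein of lipid-laden macrophages, had 0.222, 0.226, 0.0703, 0.315 and 0.503 CPM in WT 1 to 5 and 6.24, 0.0393 and 0.336 CPM in Rbfox2 KO 1 to 3. Only Rbfox2 KO 1 held more than 1 CPM of either. Of the 10 genes tested in this list of 14, Cd9, Trem2 and Ms4a7 were higher at an unadjusted p of 0.05 (edgeR adjusted p of 0.882, 0.886 and 0.909). Over all genes the share higher was 2.41%. After adjustment 0 passed with edgeR or DESeq2. Cd9, a tetraspanin, had 15.5, 14.1, 14.1, 15.7 and 14.1 CPM in WT 1 to 5 and 22.9, 17.5 and 16.1 CPM in Rbfox2 KO 1 to 3, so that each Rbfox2 KO liver was above every WT liver. Ms4a7, a membrane protein of macrophages, had 0.517, 0.711, 0.597, 0.839 and 0.858 CPM in WT 1 to 5 and 2.07, 0.629 and 1.45 CPM in Rbfox2 KO 1 to 3, with Rbfox2 KO 1 and 3 above the WT range. The count at an unadjusted p of 0.05 was 0 without Rbfox2 KO 1. The list median was 0.41 with Rbfox2 KO 1 and -0.16 without it. The summed level in Rbfox2 KO 2 and 3 was 54.2 and 54.7 CPM, within the WT range and mostly from Spp1 and Cd9. The part of such cells in the Marco difference was not tested.

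Genes of spleen and lymph node, where Marco is also made, differed from each other. The 9 genes summed to 11.9 to 135 CPM in WT and 12.98 to 25.4 CPM in Rbfox2 KO livers, Tlx1 had no count in any library, and the highest sums, in WT 2 and WT 5, came mostly from Ighm. Cd209b, a lectin of marginal zone macrophages, was at 0.185 to 0.350 CPM in WT and 0.280 to 0.590 CPM in Rbfox2 KO, with Rbfox2 KO 2 above all WT livers. Cxcl13, a chemokine of lymphoid follicles, was at 1.70, 2.75, 2.42, 2.87 and 2.90 CPM in WT 1 to 5 and 0.659, 2.40 and 4.81 CPM in Rbfox2 KO 1 to 3, with Rbfox2 KO 3 highest and Rbfox2 KO 1 lowest. At an unadjusted p of 0.05, 0 of the 6 genes tested were higher and 1 was lower, against 2.41% and 2.33% of all genes. The 10 sinusoidal endothelial genes summed to 261 to 299.6 CPM and 232 to 278 CPM, and the 8 neutrophil genes to 2.06 to 2.75 CPM and 2.67 to 5.93 CPM, with Rbfox2 KO 1 at the top. Of the 3 neutrophil genes tested, S100a8 was the 1 higher at an unadjusted p of 0.05. Its log2 difference was 1.01 ± 0.40 (SE) (edgeR, adjusted p = 0.982), or 0.27 without Rbfox2 KO 1, where 0 of the list passed. Skeletal muscle genes were high in WT 4, WT 5 and Rbfox2 KO 1, from 198 to 327 CPM, and at most 42.1 CPM in the others. The part of these cell types in the Marco difference was not tested beyond the values given.

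**Figure D4:**
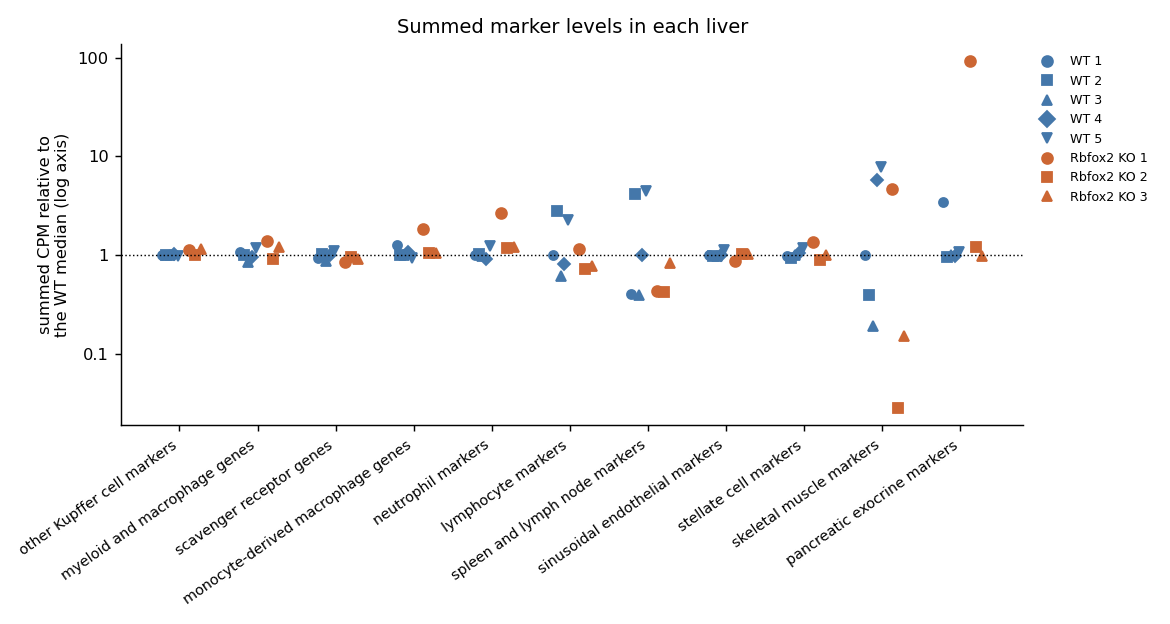
Summed CPM of 11 marker lists in each liver, relative to the WT median of the list, on a log axis with WT livers in blue and Rbfox2 KO livers in orange. Rbfox2 KO 1 lies highest for the monocyte-derived macrophage, neutrophil and pancreatic lists, while sums of the other Kupffer cell markers are in a narrow range in WT and higher in Rbfox2 KO 1 and 3, with 572 to 593 CPM in WT and 583 to 677 CPM in Rbfox2 KO.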

How the data were processed

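The authors deposited raw read counts per Ensembl gene from poly(A)-selected, paired-end libraries, aligned to GRCm38 with TopHat2 2.0.11 and counted with featureCounts. Use of strand in counting and the handling of multiply aligned reads are not given in the sources used here. Groups were taken from the sample labels, which do not give litters or batches.

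Genes were filtered with filterByExpr (14654 of 46078 kept), scaled by TMM and tested with edgeR 4.0.16 (robust quasi-likelihood F test, genotype only, two-sided, R 4.3.3), with Benjamini-Hochberg adjustment over all tested genes at 0.05. SEs were taken as the absolute log2 fold change over the square root of F, and 95% intervals use the fit's degrees of freedom. CPM are TMM-scaled, and log2 CPM for ratios and correlations used a prior count of 2. Exon lengths and coordinates are those of GENCODE M21. Counting floors cover counting error only. Scripts were tested on simulated data.

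The 10 genes and all lists were chosen with earlier results of these data known. The rule for named genes was the 10, list genes with an unadjusted p under 0.05 (at most 4 a list, filled with the most abundant up to 2), and the 5 most like Marco. It was not carried through for every list. The 1 lower spleen and lymph node gene and the 1 higher pancreatic gene are not identified, and lists of other cell types were not all filled. Markers of hepatocytes, stellate cells, cholangiocytes, lymphocytes and red blood cells were summed too. Msr1, Hmgxb3, Gpnmb, Ctsc, Cxcl13, Spp1 and Cd209b were named after their values were seen. Alternatives covered scaling, filters, DESeq2 1.42.0, limma-voom 3.58.1, the sample number as a block and leaving out each liver.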

Additional observations from a re-analysis of the deposited data

Results flagged for a closer look

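In Rbfox2 KO 1, genes that the filter on low counts had left out gave signals above those of WT livers. The 4 untested monocyte-derived macrophage genes (Chil3, Vcan, F13a1 and Gpnmb) summed to 7.69 CPM there, against 0.351 to 0.776 CPM in WT. The 5 untested neutrophil genes summed to 1.004 CPM, against 0.0739 to 0.226 CPM in WT. The 11 untested pancreatic exocrine genes summed to 433.9 CPM, against 0.097 to 10.3 CPM in WT. Marco was at 22.2 CPM in this liver, between the other 2 Rbfox2 KO livers.

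Of 27 sums and levels examined in the 5 WT livers, 2 had a sample far from the others, where chance gives about 1.35. The pancreatic exocrine sum of WT 1 lay 0.957 of the group's range away from the nearest other liver, and in the sinusoidal endothelial sum the gap was 0.756 of the range. None of the 10 genes had such a sample in WT.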

How the results depend on the processing

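Marco was higher in Rbfox2 KO under all 16 alternative fits, with log2 differences of 0.93 (without Rbfox2 KO 3) to 1.32 (without Rbfox2 KO 2). As Marco was chosen for its higher level in these same livers, its sign could hardly differ, and the range describes its size only. The Marco difference relative to Clec4f, Timd4 and Vsig4 was 0.98 to 1.22 with 1 liver left out and 1.07 with a prior count of 0.5. With Adgre1, Csf1r and Cd68 as the reference it was 0.95, and with all 9 markers, a reference chosen after seeing the data, 1.05. None of the 9 markers passed the adjusted threshold under any of the 16 fits. Without Rbfox2 KO 2 the log2 differences of Adgre1, Cd5l and Cd68 were the highest of the 9. They were 0.44, 0.61 and 0.55 (edgeR adjusted p of 0.514, 0.161 and 0.688). Without Rbfox2 KO 1, Timd4 was the 1 marker of 9 past an unadjusted p of 0.05, where 3.83% of all genes passed. The sign was not stable for 6 markers: the log2 difference ran from -0.039 (without Rbfox2 KO 1) to 0.55 for Cd68, from -0.061 (without Rbfox2 KO 3) to 0.13 for Mrc1, from -0.11 to 0.025 (without Rbfox2 KO 2) for Clec4f, from -0.032 (without Rbfox2 KO 3) to 0.42 for Timd4, from -0.050 (without Rbfox2 KO 3) to 0.23 for Vsig4 and from -0.20 (without Rbfox2 KO 3) to 0.12 for Csf1r, which was also negative without WT 1 or WT 3. Without Rbfox2 KO 3 Cd163 was at -0.80 and Adgre1 at 0.12, and without WT 5 Cd163 was at -0.099. List medians ran from 0.085 (without Rbfox2 KO 1) to 0.36 (without Rbfox2 KO 2) for other Kupffer cell markers, from -0.16 (without Rbfox2 KO 1) to 0.64 (without Rbfox2 KO 3) for monocyte-derived macrophage genes and from 0.080 (without Rbfox2 KO 1) to 0.40 (without Rbfox2 KO 2) for inflammatory mediators.

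With library totals in place of TMM, which moved the median of all genes to 0.12, Clec4f was at 0.088 and the medians were 0.39 for other Kupffer cell markers, 0.61 for monocyte-derived macrophage genes and 0.12 for scavenger receptors. Limma-voom gave 0.29 for the monocyte-derived list. Without a filter 6 genes passed the adjusted threshold, and with DESeq2 59, against 0 in the edgeR fit, and the cause was not tested. The main fit did not pair livers by sample number. Deviations of the 3 same-numbered pairs correlated by 0.048 to 0.17, and those of other pairs by -0.41 to 0.37. With 3 such pairs a shared litter or batch cannot be told, and it was not tested. With the number as a replicate block, the log2 differences of Adgre1, Cd5l and Clec4f were 0.37, 0.42 and 0.0041 (edgeR adjusted p of 0.967, 0.816 and 0.999). All 10 genes were far above 3 counts in every liver.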

Other observations

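Lymphocyte genes differed among the livers apart from the macrophage markers. The B cell genes Ms4a1 and Cd79a were highest in WT 2 (2.97 and 2.68 CPM) and WT 5 (2.25 and 2.22 CPM) and at or below 0.734 CPM in the other 6 livers, with adjusted p of 0.99997 for the genotype difference (edgeR). Gzma, a granule protease of natural killer and T cells, was at 0.784, 0.354 and 0.503 CPM in Rbfox2 KO 1 to 3 and at 0.0887 to 0.406 CPM in WT, with an adjusted p of 0.825. Ass1, a urea cycle enzyme of hepatocytes, was at 2263, 1535 and 1869 CPM in Rbfox2 KO 1 to 3 and at 927 to 1495 CPM in WT livers, a log2 difference of 0.62 ± 0.19 (SE) with an adjusted p of 0.824.

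In the lists of lymphocyte, hepatocyte, stellate cell, cholangiocyte, red blood cell, skeletal muscle and pancreatic exocrine genes, 0 genes passed the adjusted threshold with edgeR or DESeq2. Of 9 lymphocyte genes tested, 1 was higher and 2 were lower at an unadjusted p of 0.05, where these shares were 2.41% and 2.33% over all genes. Of 8 hepatocyte genes 1 was higher, and the 10 stellate, 6 cholangiocyte and 5 red blood cell genes tested gave 0. Without Rbfox2 KO 1 the counts were 1 higher and 1 lower for lymphocyte, 2 higher for hepatocyte and 2 lower for red blood cell genes. Over all genes 3.83% passed in that fit, both directions together. The sums were 3.16 to 14.3 CPM in WT and 3.70 to 5.84 CPM in Rbfox2 KO for lymphocytes, 280.1 to 353 CPM in WT and 269 to 409 CPM in Rbfox2 KO for stellate cells and 20.9 to 32.5 CPM in WT and 25.3 to 32.2 CPM in Rbfox2 KO for cholangiocytes. Hepatocyte genes summed to 78916 to 85742 CPM in WT and 70862 to 87919 CPM in Rbfox2 KO, and red blood cell genes to 859 to 1459 CPM in WT and 741 to 2107 CPM in Rbfox2 KO, with Rbfox2 KO 1 highest for the latter.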
